A study of Mus with 4 samples.

Results

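The RING and TRIM ubiquitin ligase genes examined here were the genes listed under a symbol made of *Rnf*, *Znrf* or *Trim* and a number, leaving out *Znrf3* and *Rnf43*. At least 1 m6A peak was listed on 83 of them, out of 10105 gene symbols with a peak in the data: 50 *Rnf*, 2 *Znrf* and 31 *Trim* genes. They carried 163 of the 18400 peaks in interscapular brown adipose tissue (iBAT) of *Wtap* flox/flox mice and 157 of the 18693 peaks in iBAT of *Wtap*-BKO mice. A gene table of the mouse genome held 135 symbols that met the naming rule, of which 82 had a peak and 53 had none, and 1 member, *Rnf219*, was not in that table under this symbol.

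The peaks came from m6A RNA immunoprecipitation sequencing (MeRIP-seq), in which fragmented poly(A)+ RNA is pulled down with an m6A antibody and compared with the input RNA. There were 4 samples, 1 IP and 1 input for each genotype, each pooled from 8 mice, so each genotype was represented by 1 peak list with no replicate. All mice were C57BL/6, 8 weeks old and on normal chow, and both genotypes carried floxed *Wtap* alleles. The *Wtap*-BKO mice also carried UCP1-iCre, which acts in UCP1-expressing adipocytes, so the *Wtap* alleles of other cells in the tissue are not targeted. WTAP is a subunit of the m6A methyltransferase complex, and its loss was not checked here, as peak lists hold no expression level. Of 12 brown adipocyte marker genes, 11 had peaks in both lists and 1 in the *Wtap* flox/flox list. Of 12 skeletal muscle markers, 4 were in both lists and 7 in the *Wtap*-BKO list alone, of 9 macrophage markers 4 and 4, and of 11 T/B lymphocyte markers 2 and 4. The part of these cell types in the results was not tested. In bulk tissue, fewer cells of a type and less RNA per cell cannot be told apart.

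Ubiquitin ligases choose the proteins to which ubiquitin is attached, and those of the RING type bring a charged E2 enzyme and a substrate together through a zinc-binding RING domain. TRIM proteins follow that RING with B-box domains and a coiled coil, and then a variable end, such as a SPRY or NHL domain, that often binds the substrate. A few members, such as *Trim16* and *Trim44*, carry the TRIM name without a RING. The ubiquitin marks they place send proteins to the proteasome or lysosome, or act as signals at chromatin, damaged DNA and innate immune receptors.

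Peaks were found on most of these genes in both genotypes. Of the 83 genes, 68 (81.9%) had peaks in both lists, against 73.3% of all gene symbols. Peaks in the *Wtap* flox/flox list alone were listed for 8 genes (9.64%, against 13.5% of all symbols) and in the *Wtap*-BKO list alone for 7 (8.43%, against 13.2%). The 8 genes of the first kind were all *Rnf* genes and included *Rnf4*, *Rnf7*, *Rnf34*, *Rnf114*, *Rnf181*, *Rnf182* and *Rnf217*. Of the 7 genes of the second kind, 5 were *Trim* genes (*Trim5*, *Trim47*, *Trim55*, *Trim59* and *Trim69*) and 2 were *Rnf* genes (*Rnf157* and *Rnf166*). A gene without a peak in a list had none that passed the authors' false discovery rate (FDR) limit, which is not the same as having no m6A or no RNA. With only peaks under an FDR of 1e-05 kept in both lists, 69 of the genes remained, 52 in both lists (66.8% of all symbols with such peaks), 15 in the *Wtap* flox/flox list alone (20.1% of all) and 2, *Trim47* and *Rnf219*, in the *Wtap*-BKO list alone (13.1% of all). The counts of genes in a single list, 8 and 7 with every peak and 15 and 2 with strong peaks, therefore turned on the peaks near the threshold.

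The number of peaks per gene was close in the 2 lists. The 76 genes with *Wtap* flox/flox peaks held 2.14 peaks each (1.95 over all named genes), and the 75 genes with *Wtap*-BKO peaks held 2.09 (2 over all named genes). A single peak was listed for 30 genes in *Wtap* flox/flox, against 34 in *Wtap*-BKO, and 3 or more peaks for 20 and 19. For these counts no share over all genes was taken. Some peaks of a gene lay on each other, and merging them left 159 *Wtap* flox/flox and 153 *Wtap*-BKO regions. Of the 68 genes in both lists, 36 had as many regions in one as in the other, 18 had more in *Wtap* flox/flox (23.8% of all symbols in both lists did) and 14 had more in *Wtap*-BKO (27.2% of all).

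**Figure D1:**
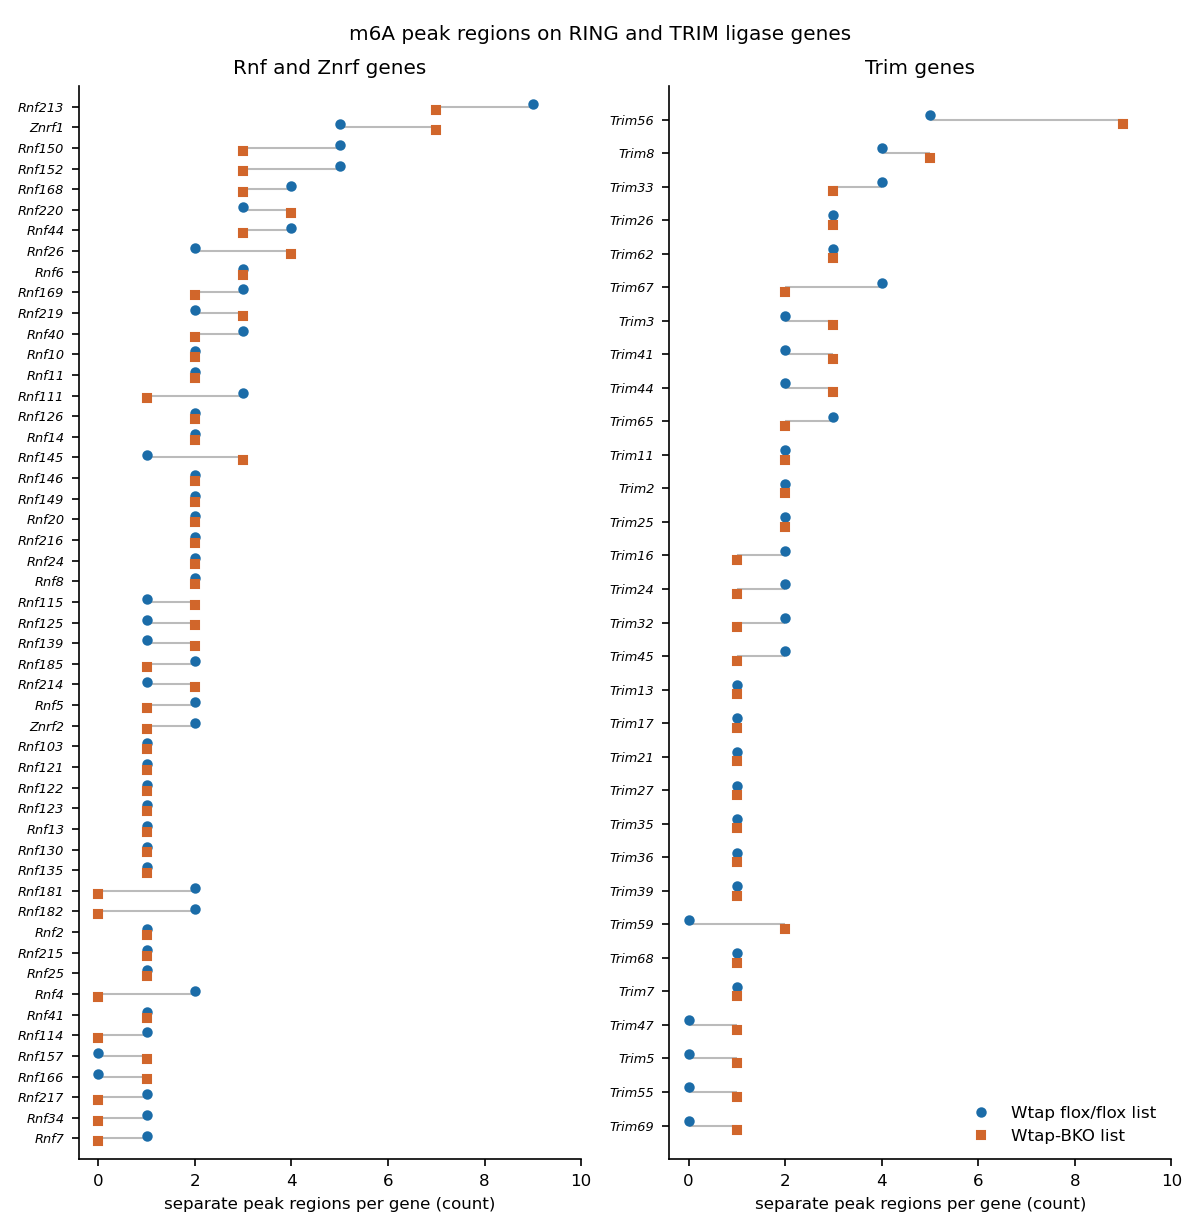
Peak regions per gene (horizontal axis, count after merging overlapping peaks) for all but 1 of the RING and TRIM ligase genes, with *Wtap* flox/flox and *Wtap*-BKO marked for each gene. *Rnf213* reached 9 regions in *Wtap* flox/flox, *Trim56* reached 9 in *Wtap*-BKO, and 36 of the 68 genes in both lists had equal numbers.

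The largest numbers of peaks lay on *Rnf213* and *Trim56*. *Rnf213*, which encodes a very large ligase with an AAA+ ATPase core, had 9 *Wtap* flox/flox and 7 *Wtap*-BKO peaks on chromosome 11, covering 2798 and 2677 exonic bases with 2107 in common. Its strongest peak, chr11:119486158-119486878 in *Wtap* flox/flox and chr11:119486098-119486878 in *Wtap*-BKO, had its centre 900 and 930 bp from the 3′ end of the gene. That peak was stronger than 96.2% of its own list in *Wtap* flox/flox and than 98.9% in *Wtap*-BKO, so it was among the strongest in both. A second cluster of *Rnf213* peaks lay about the middle of the gene, where *Wtap* flox/flox peaks at chr11:119440383-119440653 and chr11:119440773-119441163 lay on the single *Wtap*-BKO peak chr11:119440383-119441163.

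*Trim56*, a ligase of innate immune signalling that acts on the DNA-sensing pathway, had 5 *Wtap* flox/flox and 9 *Wtap*-BKO peaks on chromosome 5, covering 2669 and 3482 bases with 2550 in common. Each of the 5 *Wtap* flox/flox peaks lay on a *Wtap*-BKO peak, whereas 3 of the 9 had no counterpart in *Wtap* flox/flox. The strongest of the 3, chr5:137108638-137108907, had a fold enrichment of 3.97 and was stronger than 54.6% of its list. The longest *Wtap* flox/flox peak, of 1378 bases at chr5:137110134-137111511, lay on *Wtap*-BKO peaks of 450 and 1019 bases. Of the peak centres, 2 of the 5 in *Wtap* flox/flox and 6 of the 9 of *Wtap*-BKO lay downstream of the 3′ end that the gene table gives for *Trim56*.

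*Znrf1*, *Rnf150* and *Rnf152* also had 5 *Wtap* flox/flox peaks each. *Znrf1*, a membrane-associated ligase studied in nerve cells, had 5 and 7 peaks, and all 5 *Wtap* flox/flox peaks were found. *Rnf150*, of the PA-TM-RING family of transmembrane ligases, had 5 and 3, and *Rnf152*, a ligase of the lysosomal membrane, had 5 and 3. For both *Rnf150* and *Rnf152*, every *Wtap*-BKO peak was found in the *Wtap* flox/flox list and 2 of the 5 *Wtap* flox/flox peaks were not found in the other. *Rnf26*, which encodes a ligase of the endoplasmic reticulum, was listed with 4 and 8 peaks, but the same stretches appeared under 2 gene identifiers and came to 2 and 4 regions. *Trim8*, a regulator of NF-κB and STAT signalling, had 4 and 5 peaks, and all 4 *Wtap* flox/flox peaks were found.

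Most peaks on these genes shared bases with a peak of the other genotype. A peak counted as found when it had 1 or more exonic bases in common with a peak of the other genotype on its strand, whichever gene that peak was listed under. Of the *Wtap* flox/flox peaks, 114 of 163 had such a counterpart (69.9%, 95% Wilson interval 62.5% to 76.5%), against 67.8% of all peaks. Of the *Wtap*-BKO peaks, 118 of 157 had one (75.2%, 67.9% to 81.3%), against 68% of all peaks. The intervals cover counting error only. The background lay within both intervals, for *Wtap*-BKO at the lower edge. On *Rnf* genes 67 of 101 *Wtap* flox/flox peaks (66.3%) and 70 of 88 *Wtap*-BKO peaks (79.5%) were found, on *Trim* genes 41 of 55 (74.5%) and 42 of 61 (68.9%), and on *Znrf* genes 6 of 7 and 6 of 8. Of the 68 genes in both lists, 29 had every peak of both lists found in the other, 27 had at least 1 *Wtap* flox/flox peak not found, and 26 had at least 1 *Wtap*-BKO peak not found. No share over all symbols was taken for these counts, so they are not read as particular to these genes.

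Only *Trim35* and *Trim45* had peaks in both lists that shared no base (6.22% of all symbols in both lists did). The *Trim35* peaks of 151 bases each lay at chr14:66309145-66309295 in *Wtap* flox/flox and at chr14:66304016-66304166 in *Wtap*-BKO. For *Trim45* the stronger of 2 *Wtap* flox/flox peaks had a fold enrichment of 27.7 and the *Wtap*-BKO peak, of 91 bases, was stronger than 2.65% of its list. For 2 peaks of each list, on *Rnf6* and *Rnf168*, the match rested on a single shared base.

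Peaks that were not found were weaker by FDR and shorter than those that were. The median *Wtap* flox/flox peak that was found was stronger than 62.9% of its list and 301 bases long, and the median one that was not found stronger than 37.5% and 180 bases long. In *Wtap*-BKO the corresponding values were 57.4% and 240 bases, and 24.6% and 151 bases. Over all peaks the medians were 60.8% and 29.3% in *Wtap* flox/flox and 63.6% and 25.9% in *Wtap*-BKO, so the same ordering by FDR held without regard to gene family. The median fold enrichment on the RING and TRIM genes was 7.52 (found) and 5.79 (not found) in *Wtap* flox/flox. In *Wtap*-BKO it was 4 and 4.36, so peaks not found were not weaker there by this measure.

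Strong peaks without a counterpart were listed more often for *Wtap* flox/flox. Under an FDR of 1e-05, 25 of 110 *Wtap* flox/flox peaks on 20 genes were not found among all *Wtap*-BKO peaks (22.7%, 15.9% to 31.4%), against 20.4% of all such peaks. In the other direction, 7 of 86 *Wtap*-BKO peaks on 6 genes were not found (8.14%, 4% to 15.9%), against 15.4% of all. The background lay within both intervals. The 7 peaks lay on *Rnf26* (2), *Rnf145*, *Rnf149*, *Trim47*, *Trim56* and *Znrf1*. The share of peaks under this limit was 67.5% on these genes in *Wtap* flox/flox (63.1% of all peaks) and 54.8% in *Wtap*-BKO (58.4% of all).

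*Rnf4* had the strongest *Wtap* flox/flox peaks without a counterpart. It encodes a SUMO-targeted ubiquitin ligase, which recognises proteins already modified with SUMO. Its 4 peaks, in 2 regions, included chr5:34351744-34351953, at a log10 FDR of -20 and a fold enrichment of 2.75, and chr5:34351321-34351530, at -11.7 and 2.17. By FDR they exceeded 73.2% and 60.6% of that list, while their fold enrichments exceeded only 13.7% and 6.62% of it. No *Rnf4* peak was listed in *Wtap*-BKO.

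*Rnf34* had 1 *Wtap* flox/flox peak and none in *Wtap*-BKO. It encodes a ligase known to act on PGC-1α, a coactivator of thermogenic genes, in brown fat cells. The peak, at chr5:122864117-122866824, covered 301 exonic bases in 2 blocks, at a log10 FDR of -15.2 and a fold enrichment of 5.04, and was stronger than 67% of its list. The other leading genes without a *Wtap*-BKO peak were *Rnf181* (log10 FDR of its best peak -13.7), *Rnf182* (-7.93) and *Rnf7* (-6.03), whose protein is a RING subunit of cullin ligases. *Rnf114* and *Rnf217* had 1 peak each, both stronger than 19.3% of the list. By FDR, their absence from the *Wtap*-BKO list thus concerned peaks near the threshold, unlike that of *Rnf4* and *Rnf34*. The order was reversed by fold enrichment. The *Rnf114* and *Rnf217* peaks (15.7 each) were above 85.6% of the list, the *Rnf34* peak above 38.6% and the *Rnf4* peaks above at most 13.7%.

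Among the genes with a *Wtap*-BKO peak alone, *Trim47* had the strongest by FDR. Its peak of 298 bases, chr11:116105782-116106079, had a fold enrichment of 2.67 and a log10 FDR of -10.2, was stronger than 64% of the list, and had its centre 181 bp from the 3′ end of the gene. The best peaks of the other 6 genes were stronger than 20.4% (*Trim59*), 19.9% (*Rnf166*), 15.5% (*Rnf157*), 8.81% (*Trim5*), 5.63% (*Trim69*) and 1.35% (*Trim55*) of that list. By FDR, all 6 were therefore among its weaker peaks. By fold enrichment the order differed, with the *Trim47* peak above 21.7% of the list. The others were above 88% (*Rnf157*), 84.6% (*Trim5* and the best *Trim59* peak), 82.6% (*Trim69*), 78.3% (*Trim55*) and 47.7% (*Rnf166*).

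Strong unmatched peaks also lay on genes with other, matched peaks. On *Rnf152* the *Wtap* flox/flox peak chr1:105279279-105279578 had a fold enrichment of 3.54, was stronger than 72.1% of its list and had no counterpart. On *Rnf185*, whose product takes part in endoplasmic reticulum-associated degradation, the unmatched peak chr11:3416012-3416281 (stronger than 69.3%) lay 174 bp from the 3′ end, while the longer peak next to it, of 1408 bases, contained the single *Wtap*-BKO peak of 810 bases whole. In the *Wtap*-BKO list, the strongest unmatched peaks besides that of *Trim47* were chr9:44112294-44112532 on *Rnf26* (stronger than 64.6%), its near copy under the second identifier (62.4%), chr1:39551834-39552043 on *Rnf149* (58.4%, overlapping a peak of another gene on the strand) and the *Trim56* peak given above.

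The *Wtap* flox/flox peaks covered more of the transcripts of these genes. The median peak was 269 exonic bases long in *Wtap* flox/flox (range 90 to 1794, median over all named genes 241) and 210 in *Wtap*-BKO (range 90 to 1434, 211 over all). Together the peaks covered 53857 bases in *Wtap* flox/flox, against 44002 in *Wtap*-BKO, of which 33051 were in both. These made up 61.4% of the *Wtap* flox/flox bases, against 62.1% over all named genes, and 75.1% of the *Wtap*-BKO bases, against 68.4%. Among the 68 genes in both lists, 47 had more bases in *Wtap* flox/flox, 19 had more in *Wtap*-BKO, and 54% of all symbols in both lists had more in *Wtap* flox/flox. A covered length depends on how much was called in each sample, and the depth of the samples is not known.

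**Figure D2:**
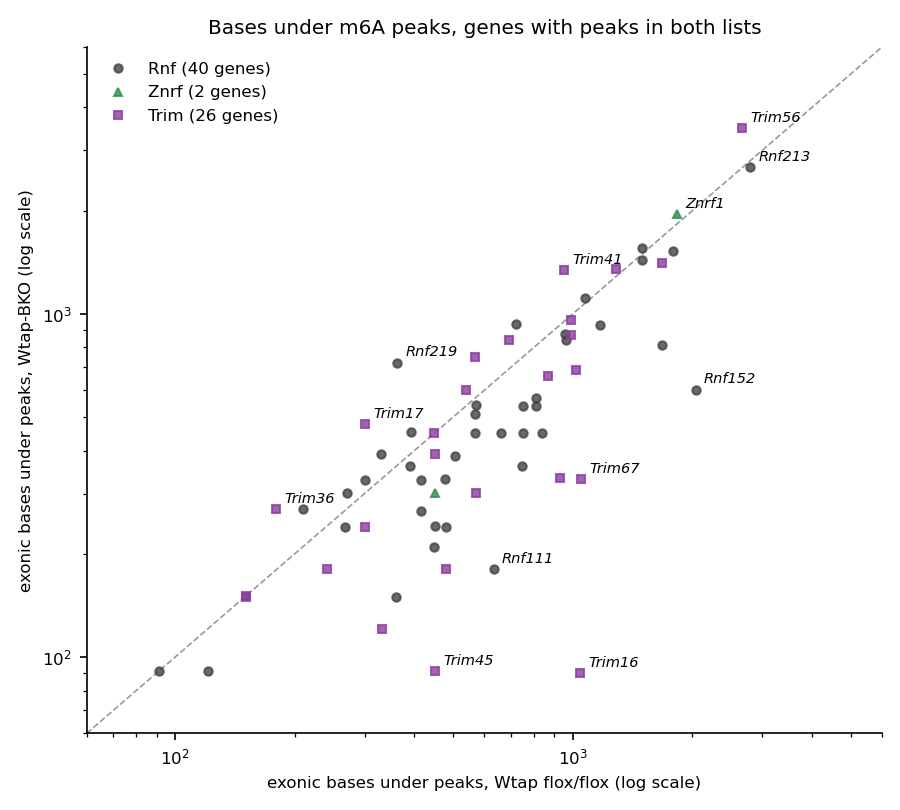
Exonic bases covered by peaks on each RING or TRIM ligase gene with peaks in both lists, *Wtap* flox/flox on the horizontal and *Wtap*-BKO on the vertical axis, both logarithmic, with 1 point per gene and a line of equality. Of 68 genes, 47 had more bases in *Wtap* flox/flox and 19 more in *Wtap*-BKO. *Rnf152* (2041 against 602) and *Trim16* (1046 against 90) lie far under the line.

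*Trim16* and *Rnf152* had the largest losses of covered length among the genes named here. *Trim16*, whose product helps mark damaged lysosomes for autophagy, had 1046 bases in *Wtap* flox/flox, against 90 in *Wtap*-BKO. *Rnf152* had 2041 and 602, and all 602 lay within *Wtap* flox/flox peaks. *Trim56* went the other way, with 2669 and 3482 bases.

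A long peak of one list could lie on several peaks of the other. This was so for 12 of the *Wtap* flox/flox peaks (6.08% of all peaks) and 12 of the *Wtap*-BKO peaks (5.08% of all), 4 and 6 of them on the doubly listed *Rnf26*. Those on *Rnf8*, *Trim17* and *Trim67* overlapped a listed peak of another gene on the strand, so the same stretch could be counted under both genes. On *Rnf139*, which encodes an endoplasmic reticulum ligase with a sterol-sensing domain, the longest peak of the set, 1794 bases at chr15:58898431-58900224 in *Wtap* flox/flox, lay on *Wtap*-BKO peaks of 927 and 598 bases. Those shared 1525 bases with it, 85% of its length. Where *Wtap* flox/flox peaks were matched, the best *Wtap*-BKO peak covered fewer bases for 64 of 114 (56.1%, against 47.8% of all matched peaks), as many for 12 and more for 38.

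**Figure D3:**
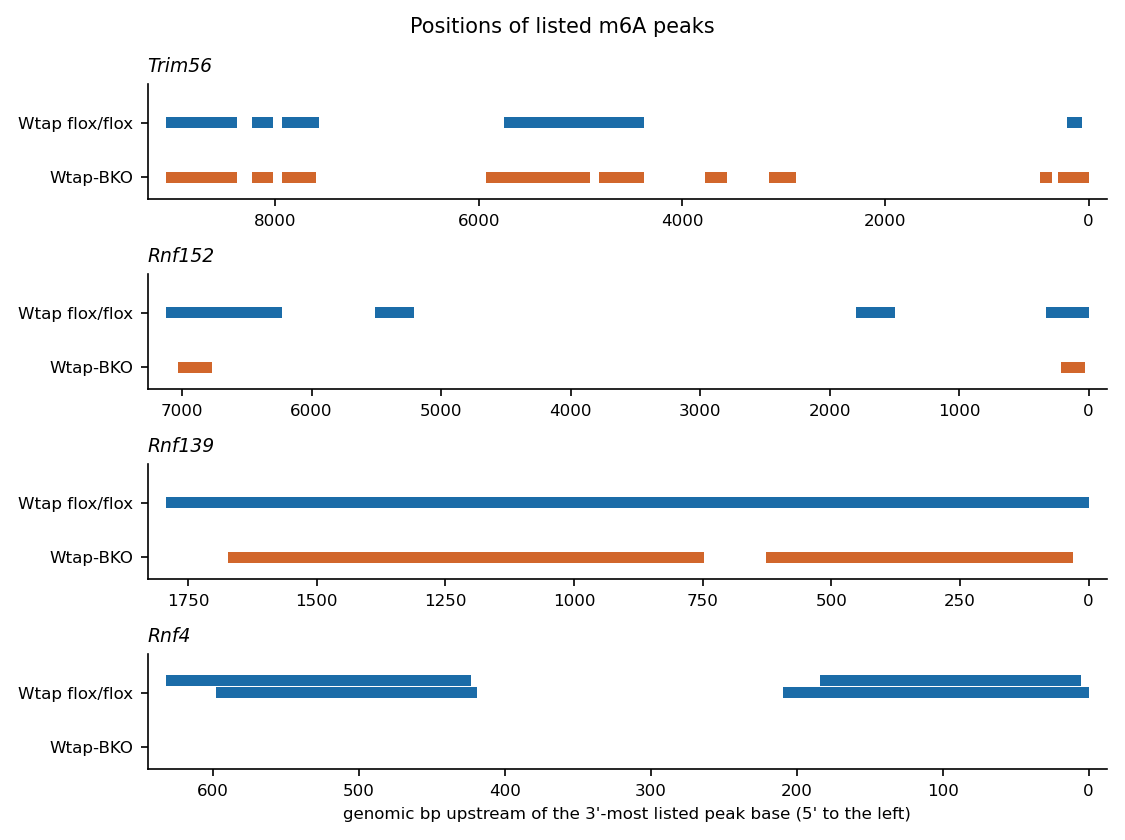
Spans of listed peaks on *Trim56*, *Rnf152*, *Rnf139* and *Rnf4*, by genotype, along the genome in bp upstream of the listed peak base nearest the 3′ end, with the 5′ side to the left. *Trim56* has 5 and 9 peaks, *Rnf139* 1 long peak against 2, and *Rnf4* none in *Wtap*-BKO, while the *Rnf152* panel leaves out 1 peak of each list that lies far upstream.

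Since the lists were called separately, a peak was ranked within its own list, by FDR unless fold enrichment is named. Fold enrichment, IP over input within a genotype, had a median of 7.44 on these genes in *Wtap* flox/flox (interquartile range 3.81 to 14.1, all named genes 6.5) and 4.14 in *Wtap*-BKO (2.77 to 8.72, all named genes 4.64). The median was thus above that of all named genes in *Wtap* flox/flox and below it in *Wtap*-BKO. By fold enrichment the median peak on these genes was above 55.1% of its list in *Wtap* flox/flox and 44.3% of it in *Wtap*-BKO (49.4% and 49.8% over all named genes), and by FDR above 53.3% and 47.2% (51% and 50.4% over all).

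By FDR, the matched peaks had no common direction. Of the 114 matched *Wtap* flox/flox peaks, on 66 genes, 52 ranked lower in the *Wtap*-BKO list (45.6%, 36.8% to 54.8%), against 43.6% of all matched peaks. By fold enrichment 61 ranked lower (53.5%, against 48.9% of all), with 42 of 67 on *Rnf* genes (62.7%), 18 of 41 on *Trim* genes (43.9%) and 1 of 6 on *Znrf* genes. The 2 measures thus differed most on the *Rnf* genes, where 32 of 67 (47.8%) ranked lower by FDR. Peaks that fell by more than 20 points of rank by FDR numbered 25 (21.9%, against 15.2% of all matched peaks), and those that rose by more than 20 points numbered 25 as well (21.9%, against 22.7%). On *Rnf* genes 17 fell and 15 rose of 67, and on *Trim* genes 6 fell and 8 rose of 41.

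**Figure D4:**
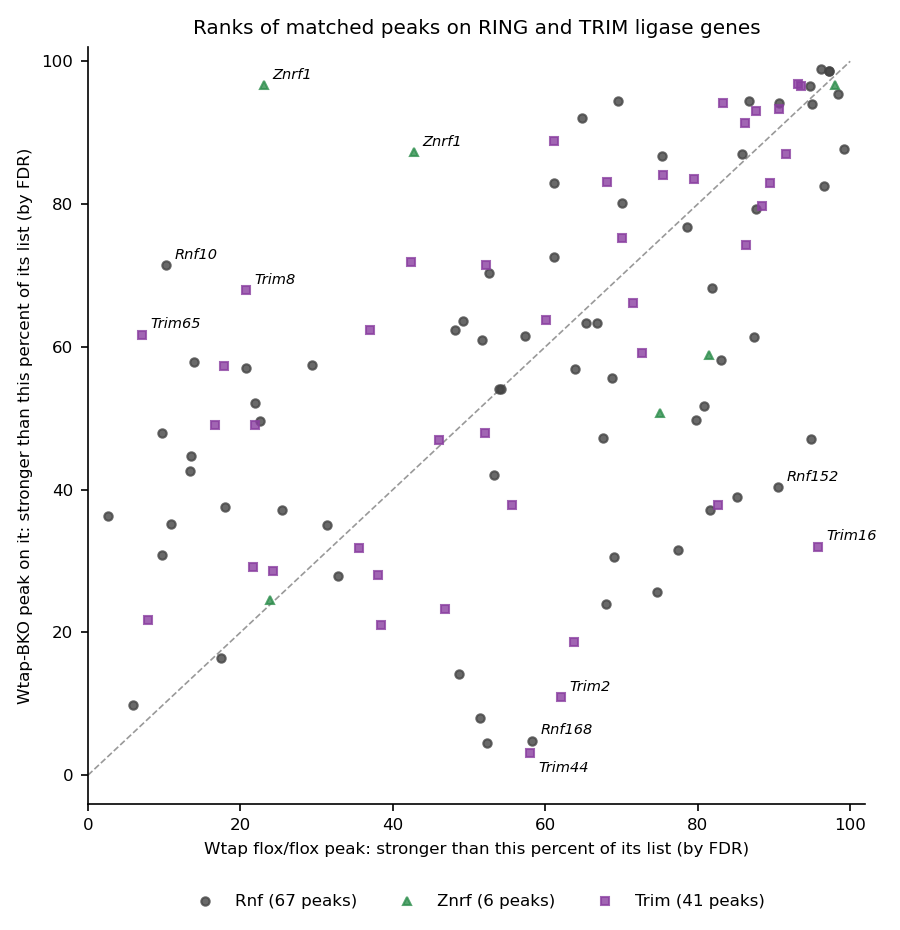
Rank by FDR of each of the 114 matched *Wtap* flox/flox peaks (horizontal axis, percent of its list that is weaker) and of the strongest *Wtap*-BKO peak on it (vertical axis, likewise), with *Rnf*, *Znrf* and *Trim* genes marked and equal rank as a dashed line. Points lie on both sides, and the peaks named are the 5 largest falls and the 5 largest rises, from 95.8 to 32 for *Trim16* and from 10.3 to 71.4 for *Rnf10*.

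The largest fall in rank was that of *Trim16*. The *Wtap* flox/flox peak chr11:62840516-62841292, of 777 bases, had a fold enrichment of 14.9 and a log10 FDR of -105, and was stronger than 95.8% of its list. The *Wtap*-BKO peak inside it, of 90 bases, had a fold enrichment of 2.32 and a log10 FDR of -3.95 and was stronger than 32% of its list. A long, strong peak in one genotype thus stood against a short, weak one in the other.

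*Rnf152* fell at all 3 of its matched peaks. Its peak near the 3′ end went from stronger than 90.5% to 40.3%, the peak of 899 bases at chr1:105284008-105284906 from 94.8% to 47.1%, and the peak near the 5′ end from 48.7% to 14.2%. *Trim2*, which encodes an NHL-domain ligase known from neurons, fell from 82.7% to 37.8% and from 62.1% to 10.9%, although by fold enrichment the second peak went from 31.5% to 38.6%. On *Trim44* and *Rnf168* a weaker peak fell, from 58% to 3.08% and from 58.3% to 4.85%, while the strongest peak stayed near its rank (93.2% and 96.8% for *Trim44*, 85.8% and 87% for *Rnf168*). The 5 largest falls therefore included genes on which every matched peak ranked lower by FDR and genes on which the leading peak did not.

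The 5 largest rises were of *Wtap* flox/flox peaks that ranked below the middle of their list by FDR. On *Rnf10*, whose product ubiquitinates small ribosomal subunit proteins, the peak at the 3′ end, chr5:115241772-115241892, was stronger than 10.3% of its list and the *Wtap*-BKO peak on it, chr5:115241772-115241952, than 71.4%, with fold enrichments of 2.42 and 3.45. The rise on *Trim65*, of a ligase of the RNA sensor MDA5, was from 7.12% to 61.7%, that on *Trim8* from 20.7% to 67.9%, and that on *Znrf1*, chr8:111625640-111625910 in both lists, from 42.8% to 87.3%. By fold enrichment *Znrf1* (2.04 and 2.67, above 5.09% and 21.7% of the lists) rose too, but *Trim65* (7.49 and 3.76, above 55.2% and 39.6%) and *Trim8* (9.37 and 5.25, above 64.5% and 55%) ranked lower in *Wtap*-BKO. Another *Znrf1* peak, chr8:111622342-111622492, went from 23.1% to 96.7%, but it shared 1 base with the strong *Wtap*-BKO peak chr8:111622492-111623001 and 61 bases with a *Wtap*-BKO peak stronger than 10.2% of its list. The strong peak was itself the counterpart of a *Wtap* flox/flox peak stronger than 98%.

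Several of the strongest peaks ranked high by FDR in both genotypes. The first *Wtap* flox/flox peak by FDR was on *Rnf11*, which encodes a small adaptor of NEDD4-family ligases, at chr4:109454138-109457030. Its FDR was listed as 0, its fold enrichment was 13.1, and it was stronger than 99.2% of the list. The *Wtap*-BKO peak on it had a fold enrichment of 2.32 and a log10 FDR of -31.3, and was stronger than 87.7%, while by fold enrichment the pair ranked above 79.4% and 15.1%. On *Rnf146*, a ligase that recognises poly(ADP-ribose), one peak was stronger than 98.4% and 95.4% (30.5% and 11.9% by fold enrichment), and the other, at chr10:29346688-29347674 in *Wtap* flox/flox, than 97.2% and 98.6%. The leading peaks of *Rnf139* (97.2% and 98.7%), *Rnf213*, *Znrf1* (98% and 96.7%), *Trim41* (93.6% and 96.6%) and *Rnf103* (95% and 94%) were likewise near the top of both lists. *Rnf13*, of the PA-TM-RING family, went from 96.5% to 82.5%.

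The centre of the peak was within 1000 bp of the 3′ end of the gene for 19 of 151 *Wtap* flox/flox peaks (12.6%, 8.21% to 18.8%), against 21.7% of all peaks, and for 20 of 135 *Wtap*-BKO peaks (14.8%, 9.8% to 21.8%), against 19.3%. The background lay above the interval in *Wtap* flox/flox and within it in *Wtap*-BKO, and at the other 2 windows tried it lay within the interval in both genotypes. The shares were 16.1% and 15.8% on *Rnf* genes and 7.69% and 15.1% on *Trim* genes. Within 500 bp lay 7.95% of the *Wtap* flox/flox peaks (4.6% to 13.4%, against 11.5% of all peaks) and 8.15% of the *Wtap*-BKO peaks (4.61% to 14%, against 9.85%). Within 2000 bp lay 31.8% (24.9% to 39.6%, against 37.5%) and 29.6% (22.6% to 37.8%, against 34%). The median distance was 3641 bp in *Wtap* flox/flox (3228 over all peaks) and 3653 in *Wtap*-BKO (3754 over all).

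Within 1000 bp of the 5′ end lay 16.6% of the *Wtap* flox/flox peaks (11.5% to 23.3%, against 11.4% of all) and 12.6% of the *Wtap*-BKO peaks (8.01% to 19.2%, against 13.1%). The background lay just below the interval in *Wtap* flox/flox and within it in *Wtap*-BKO, and no other window was tried at this end. Examples of such peaks are the strongest peaks of *Rnf10* (398 and 413 bp from the 5′ end, stronger than 94.7% and 96.6%) and of *Trim44* (609 and 579 bp). Distances were taken along the genome to the ends of the gene in the table, with introns counted. Only genes spanning at least 3000 bp and peaks centred within the gene were used. This left out all peaks of *Rnf5*, *Rnf26* and *Rnf219*, and those of *Trim56*, *Trim65* and *Znrf1* centred beyond a gene end. Some of these lay close to an end, such as the *Wtap* flox/flox peaks of *Rnf5*, 259 bp from the 3′ end and 19 bp from the 5′ end. Exons, coding sequence and UTRs were not assigned, because no transcript annotation was used here.

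**Figure D5:**
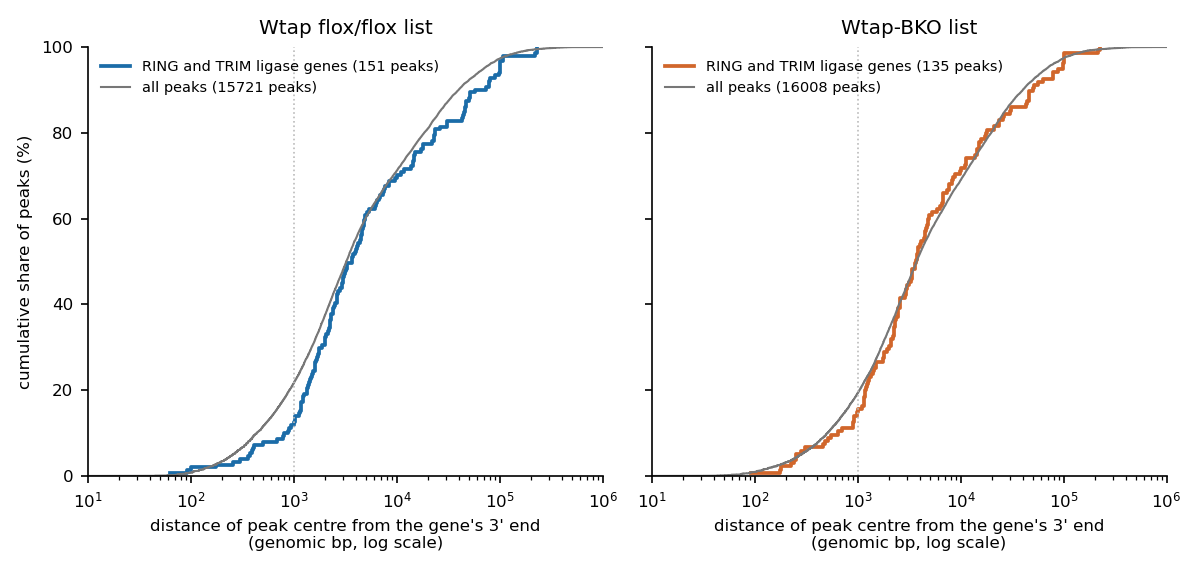
Distance of peak centres from the 3′ end of the gene, in bp along the genome, for peaks on RING and TRIM ligase genes and for all peaks, with a panel per genotype. Within 1000 bp lay 12.6% of the *Wtap* flox/flox peaks on these genes and 21.7% of all, and in *Wtap*-BKO 14.8% and 19.3%.

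Some peaks lay where genes overlap. Bases were shared with a peak of another gene on either strand for 14 peaks in each list (8.98% and 8.05% of all peaks), on the same strand for 4 and 5. They lay on *Rnf5*, *Rnf8*, *Rnf26*, *Rnf123*, *Rnf139*, *Rnf146*, *Rnf149*, *Rnf150*, *Rnf152*, *Trim17*, *Trim67* and *Znrf1*, and those on the same strand could belong to either gene. Peaks in 2 or more blocks, which cross introns, made up 24 of the *Wtap* flox/flox peaks (14.7%, 15.4% of all) and 21 of the *Wtap*-BKO peaks (13.4%, 19.8% of all).

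The chromatin and transcription genes had peaks in both lists for 7 of 10 and in the *Wtap* flox/flox list alone for 2, among them *Rnf4*. The symbol left over, *Rnf12*, is an older name of *Rlim*, which the lists give under its present name with 3 and 4 peaks and which is counted with the other RING ligases instead. Of their *Wtap* flox/flox peaks 12 of 23 were found (52.2%, 33% to 70.8%), and of their *Wtap*-BKO peaks 12 of 14 (85.7%, 60.1% to 96%). Over all named genes 68.8% of the peaks of each list were found, the share to set beside this group and those below. That share lay within both intervals here. The *Wtap* flox/flox peaks not found included the 4 on *Rnf4*, which made up 2 regions. *Rnf20* and *Rnf40* encode the partners of the ligase that ubiquitinates histone H2B. The leading *Rnf20* peak ranked above 64.8% of its list in *Wtap* flox/flox, against 92% in *Wtap*-BKO, with fold enrichments of 4.32 and 11.4, and the leading *Rnf40* peak above 80.8% and 51.7%, with 5.28 and 2.07. The leading peaks of these partners thus moved in opposite directions in rank, while the other matched *Rnf40* peak, chr7:127596242-127596452, went from 31.4% to 35.1%. *Rnf2*, the catalytic RING of Polycomb repressive complexes that ubiquitinate histone H2A, had 1 weak peak in each list (18% and 37.6%). *Rnf111*, a SUMO-targeted ligase of TGF-β signalling, had 3 peaks and 1, the matched one with fold enrichments of 25.9 and 3.65 and ranks of 67.6% and 47.2%.

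The DNA damage genes were in both lists for 4 of 5, with 7 of 10 and 7 of 8 peaks found. *Rnf8* and *Rnf168* act one after the other in ubiquitination at DNA double-strand breaks. The leading *Rnf168* peak, chr16:32298769-32299308 in *Wtap* flox/flox, had fold enrichments of 23.6 and 9.2 and nearly the same rank in both lists (85.8% and 87%). *Rnf169*, which binds the mark that *Rnf168* leaves, rose from 61.2% to 82.9% at its leading peak, and the single *Rnf25* peak, 254 bp from the 3′ end in both lists, went from 87.4% to 61.4%.

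Of the 19 ligases of the endoplasmic reticulum, Golgi, lysosomal and mitochondrial membranes, 12 were in both lists, *Rnf182* in *Wtap* flox/flox alone, and 6 in neither. Their peaks were found for 21 of 29 (72.4%) and 25 of 31 (80.6%), and 14 of the 21 matched peaks ranked lower in *Wtap*-BKO (66.7%, 45.4% to 82.8%, against 43.8% of all matched peaks of named genes), with a median change of -1.85 points (2.21 over all). The 43.8% lay below the interval, which counts each peak as separate, although peaks of a gene share their source. Of the 21, 4 were the doubly listed stretches of *Rnf26*, 3 of them lower by at most 3.41 points. The falls were large for *Rnf152*, for *Rnf121* (85.2% to 39%) and for *Rnf24* (74.6% to 25.7%). *Rnf139*, *Rnf145* and *Rnf103* kept high ranks, and the *Rnf145* peak of 959 bases (90.7%) lay on a *Wtap*-BKO peak of 600 bases (94.1%) and one of 91 bases. *Rnf5*, which like *Rnf185* takes part in endoplasmic reticulum-associated degradation, had a leading peak at 70% and 80.2%. The group therefore held both stable leading peaks and several of the largest falls.

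Of the 9 PA-TM-RING genes, 4 (*Rnf13*, *Rnf130*, *Rnf149* and *Rnf150*) were in both lists and 5 in neither, with 6 of 9 and 6 of 7 peaks found. The single *Rnf130* peak had the same bounds in both lists, chr11:50025346-50025436, with fold enrichments of 30.7 and 7.49 and ranks of 49.2% and 63.6%. Of the 4 RING-between-RING genes, whose ligases pass ubiquitin through a catalytic cysteine of their own, *Rnf14* and *Rnf216* were in both lists, *Rnf217* in *Wtap* flox/flox alone and *Rnf31*, the catalytic subunit of the linear ubiquitin assembly complex, in neither. Of their 5 and 4 peaks, 2 were found in each direction.

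Of the TIF1 TRIM genes, which encode transcriptional coregulators, *Trim24* and *Trim33* were in both lists and *Trim28* and *Trim66* in neither. They had 5 of 6 and 4 of 4 peaks found. The leading *Trim24* peak, chr6:37965519-37966117 in *Wtap* flox/flox, ranked above 83.3% and 94.1%, with fold enrichments of 6.26 and 9.52, and that of *Trim33* above 70.1% and 75.3%, with 6.2 and 6.11. Both leading peaks thus ranked somewhat higher in *Wtap*-BKO.

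Of the 14 antiviral and innate immune TRIM genes, 9 were in both lists, *Trim5* in *Wtap*-BKO alone and 4 in neither. Their peaks were found for 18 of 22 (81.8%, 61.5% to 92.7%) and 19 of 27 (70.4%, 51.5% to 84.1%), and 6 of 18 matched peaks ranked lower in *Wtap*-BKO (33.3%, 16.3% to 56.3%, with 43.8% of all matched peaks of named genes inside the interval). *Trim25*, a ligase of the RNA sensor RIG-I, had a leading peak with fold enrichments of 25.9 and 33.8 and ranks of 87.6% and 93%. *Trim26* had one of 1320 and 1110 bases with ranks of 90.6% and 93.3%, and *Trim21*, an intracellular antibody receptor, one with ranks of 68.1% and 83.1%. *Trim27* went the other way, from 86.3% to 74.2%. Macrophage and lymphocyte markers had 5 and 3 peaks in *Wtap* flox/flox and 17 and 10 in *Wtap*-BKO, and their part in the peaks of these genes was not tested.

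Of the 8 TRIM genes with COS or NHL domains, 5 were in both lists and 3 in neither. Their peaks were found for 7 of 11 and 8 of 9, and 5 of the 7 matched peaks ranked lower in *Wtap*-BKO (71.4%, 35.9% to 91.8%, with 43.8% of all matched peaks of named genes inside the interval), with a median change of -23.6 points (2.21 over all). Besides those of *Trim2*, the peaks that fell were on *Trim3* (88.4% to 79.7% and 46.9% to 23.3%) and *Trim32* (63.8% to 18.7%). The *Trim67* peak chr8:124831719-124831898 rose, from 61.2% to a *Wtap*-BKO counterpart above 88.8%, while the other 3 *Trim67* peaks of *Wtap* flox/flox were not found. That counterpart was listed under another gene on the strand, and the *Trim67* peak of *Wtap*-BKO there ranked above 87.5%.

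Of the 4 muscle TRIM genes, 3 (*Trim54*, *Trim63* and *Trim72*) had no peak and *Trim55*, which encodes a sarcomere-associated ligase of striated muscle, had 1 in *Wtap*-BKO alone. That peak, chr3:19691615-19691764, had a fold enrichment of 10.6 and was stronger than 1.35% of its list. Skeletal muscle markers had 4 peaks in *Wtap* flox/flox, against 17 in *Wtap*-BKO, and their part in the *Trim55* peak was not tested.

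Of the 15 other TRIM genes, 10 were in both lists, *Trim47* and *Trim59* in *Wtap*-BKO alone and 3 in neither, with 11 of 16 and 11 of 19 peaks found. The *Trim41* peak chr11:48816104-48816877 had the highest fold enrichments of the whole set, 33.5 in *Wtap* flox/flox, against 45.6 in *Wtap*-BKO, and all of its 774 bases were also covered in *Wtap*-BKO. *Trim39* had 1 peak in each list, with fold enrichments of 24.1 and 10.1 and ranks of 91.6% and 87%. The remaining 20 members belonged to no role list, 13 of them in both lists, 4 in *Wtap* flox/flox alone and 3 in *Wtap*-BKO alone. Among them *Rnf41*, a ligase of ErbB receptors, fell from 77.4% to 31.5% at its single peak, and *Rnf123*, from 79.8% to 49.7%, at a peak overlapping one of another gene.

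Other genes of the ubiquitin system were set beside them. Of 30 E1 and E2 genes 18 were in both lists, 2 in *Wtap* flox/flox alone, 4 in *Wtap*-BKO alone and 6 in neither, with 25 of 35 and 26 of 37 peaks found. Of 26 HECT ligase genes 15 were in both lists, 4 and 2 in one alone and 5 in neither, with 24 of 45 (53.3%) and 24 of 36 (66.7%) found. Of 38 cullin and other RING ligase genes 32 were in both lists, 2 and 3 in one alone and 1 in neither, with 48 of 66 (72.7%) and 48 of 62 (77.4%) found. The shares of the RING and TRIM genes, 69.9% and 75.2%, lay between those of the HECT genes and those of the cullin and other RING genes. None of these differences was tested, since peaks of a gene share their source.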

How the data were processed

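MeRIP-seq of iBAT gave 1 IP and 1 input sample per genotype, each pooled from 8 mice, and 1 peak list per genotype. The study's methods name MACS2, while the submitters' processing notes name fastp 0.19.11, BWA 0.7.12, HOMER 4.9.1 and the build GRCm38.p6, without giving their roles. The lists, with spliced blocks and log10 columns, have the layout of exomePeak output, so the caller behind the FDR and fold values could not be settled. The score column deposited by the authors holds a p-value per peak, the authors also deposited log10-transformed p-values and FDRs as score columns, and the deposited fold enrichment is a ratio of IP over input, whose scaling is not given in the sources used here. The authors had kept peaks with an FDR under 0.05. Read depth is unknown. An FDR listed as 0 (147 and 83 peaks) was ranked first.

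Peaks were matched in Python 3.11.15 with numpy 2.4.6, scipy 1.17.1 and pandas 2.3.3, plotted with matplotlib 3.10.9, and checked on simulated data. Coordinates are GRCm38.p6, counted from 1. Ranks by FDR compare a peak with its own list only. Positions used a RefSeq gene table of the same build and genes of at least 3000 bp. No sequences were used. Genotypes were not tested against each other, having 1 pool each. The genes and lists were chosen with earlier results of these data known, and the functional lists by their textbook roles. Named genes are those with the most peaks (5 per list), the 5 strongest in a single list, the 5 largest falls and rises in rank, the 5 strongest unmatched peaks per list, and examples of each functional list; other genes were chosen after their values were seen. Alternatives were the overlap required, a stricter FDR, the window at the 3′ end, and, chosen after seeing the data, merged regions. The values of 1 gene are not reported here, although counts include it.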

Additional observations from a re-analysis of the deposited data

How the results depend on the processing

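Of 43 alternatives over 12 results, 31 stayed within the limits set for a change and 12 did not. The share of *Wtap* flox/flox peaks found, 69.9%, was 57.1% when at least 50% of the peak had to be shared, 92% when any peak on the same gene counted, 77.3% for peaks under an FDR of 1e-05, and 59.1% with that limit in both lists. The share of *Wtap*-BKO peaks found, 75.2%, was 94.9% by gene and 91.9% for peaks under 1e-05. With that limit in both lists, genes with peaks in *Wtap* flox/flox alone went from 8 to 15 and in *Wtap*-BKO alone from 7 to 2. The share near the 3′ end followed the window by construction, from 12.6% to 7.95% (500 bp) and 31.8% (2000 bp) in *Wtap* flox/flox and from 14.8% to 8.15% and 29.6% in *Wtap*-BKO. Merging overlapping peaks, an alternative chosen after seeing the data, moved none of the results it was run on beyond the limits. No paired analysis was possible because each genotype had 1 pooled IP and 1 pooled input sample, and no replicate could be left out. The depth of the samples is unknown, so a missing peak cannot be told apart from one below detection.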
